A study of Mus musculus with 12 samples.

Results

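The genes described here form the core of the interleukin-1 (IL-1) system: the ligands Il1a and Il1b, the antagonist Il1rn, the receptors Il1r1 and Il1r2, the co-receptor Il1rap, and Il1rl1, which encodes the IL-33 receptor ST2. They were found by gene name on one-colour Agilent arrays and are measured by 11 of 55681 probes, for 7 of 34761 gene names. RNA from 12 mouse samples was hybridised in 4 groups of 3. Op/op renal cells came from mice homozygous for the op mutation of Csf1, the gene for the macrophage growth factor M-CSF. WT renal cells came from wild-type mice of the same strain, B6C3Fe a/a-Csf1op/J. Both received 80 mg/kg of glyoxylate for 6 days, which loads the kidney with oxalate and forms calcium oxalate crystals. CD11b+/CD11c+ cells of these kidneys were then isolated with a magnetic sorter. There was no untreated kidney among the samples analysed here. The remaining groups, given the same strain name, were bone marrow derived macrophages (BMDM) polarised ex vivo: M1 cells had been stimulated by lipopolysaccharide (LPS) and GM-CSF, whereas M2 cells had received IL-4 plus M-CSF, and the genotype of the marrow donors is not stated in the labels. M1 and M2 cells thus differed in the growth factor as well as in the stimulus. The labels give no ages and do not say whether the arrays of a group came from separate animals or cultures. The p-values therefore rest on differences among these arrays that may be technical.

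IL-1α and IL-1β bind the same receptor, IL-1R1, which then recruits the accessory protein IL-1RAP and signals through MyD88 and the IRAK kinases to NF-κB. Il1rn encodes the IL-1 receptor antagonist, which occupies IL-1R1 without recruiting the accessory protein. IL-1R2 binds IL-1 but lacks the signalling domain and acts as a decoy. ST2 pairs with the same accessory protein when it binds IL-33, and a secreted splice form, soluble ST2, traps that cytokine. IL-1β is made as an inactive precursor that caspase-1 cleaves in inflammasomes, and calcium oxalate crystals are known to activate the NLRP3 inflammasome in kidney phagocytes.

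Levels are log2 signals with the 75th percentile of the array set to 0, and each unit is a doubling. A level compares 1 probe between samples and never 1 gene with another. A probe counts as measured where the scanner software called its signal well above background. That held for 63.1% to 68.8% of probes on op/op arrays, 76.4% to 79.5% on WT, 72.9% to 75.4% on M1 and 64.8% to 65.4% on M2 arrays, and no spot was saturated. Differences and their standard errors (SE) come from limma fitted to all genes on all 12 arrays, and a gene was called where its Benjamini-Hochberg adjusted p was under 0.05. That fit pools the spread of the groups, although the median residual SD was 0.37 among renal and 0.16 among BMDM arrays over 28238 genes. The slides allowed only part of the comparisons to be separated from handling: WT replicate 1 was alone on slide 1, the other 5 renal arrays shared slide 2 and all BMDM arrays lay on slide 3. Slide and tissue therefore cannot be told apart, nor can op/op against WT or M1 against M2 from the row of the slide.

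All 13 macrophage markers examined were well above background on every renal array. Their summed level, in multiples of the array's 75th percentile, was 63.2 to 67.6 in op/op and 105 to 230 in WT cells. Of 14 proximal tubule markers, 11 to 12 were above background on op/op arrays and all 14 on WT arrays, with sums of 27.2 to 75.3 in op/op and 126 to 255 in WT cells, and lower sums of 10.6 to 11.6 in M1 and 8.22 to 9.49 in M2 cells. Neutrophil markers, which matter because neutrophils make IL-1β and IL-1R2, summed to 313 to 352 in op/op and 255 to 311 in WT cells. They summed to 269 to 327 in M1 and 262 to 295 in M2 cells, and Mmp9 was above background on no op/op array. Sums are led by the brightest probes, so near-equal sums do not mean like neutrophil content. In op/op against M1 cells 5 of the 14 markers rose and 9 fell, with log2 differences of -4.94 to 6.33. Over all genes 81.7% were called there, 46.2% as higher and 35.5% as lower. T cell markers summed to 58.6 to 80.2 in op/op and 16.3 to 44.7 in WT cells, with Cd3g above background on no renal array. The part of these cell types in the results below was not tested, and in sorted bulk samples fewer cells of a type and less RNA per cell cannot be told apart.

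The genes for both ligands and the antagonist lie on chromosome 2. Their RefSeq promoter windows, from 250 bases before to 50 bases after a start, are shown. Each of these 3 genes was called lower in op/op against WT cells and higher in M1 against M2 cells. The receptor gene Il1r2, on chromosome 1, was called in the same directions, and its window is not shown. Coordinates are on GRCm38.p6. The windows are Il1a at chr2:129309923-129310222 on the minus strand, Il1b at chr2:129371090-129371389 on the minus strand, and 2 of the 3 listed starts of Il1rn at chr2:24336610-24336909 and chr2:24345121-24345420 on the plus strand. Capitals mark matches on either strand to 6 motifs.
Il1a: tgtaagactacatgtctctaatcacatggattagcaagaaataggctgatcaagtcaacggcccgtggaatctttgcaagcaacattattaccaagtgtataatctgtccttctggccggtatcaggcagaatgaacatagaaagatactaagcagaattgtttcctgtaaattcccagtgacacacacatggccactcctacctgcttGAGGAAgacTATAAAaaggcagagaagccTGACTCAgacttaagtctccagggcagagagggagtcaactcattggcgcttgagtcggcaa
Il1b: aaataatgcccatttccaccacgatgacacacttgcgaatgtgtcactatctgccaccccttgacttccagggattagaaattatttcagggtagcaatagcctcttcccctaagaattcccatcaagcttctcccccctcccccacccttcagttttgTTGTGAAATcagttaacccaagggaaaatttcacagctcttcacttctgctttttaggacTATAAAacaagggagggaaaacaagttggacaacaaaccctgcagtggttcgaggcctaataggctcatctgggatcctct
Il1rn, upstream start: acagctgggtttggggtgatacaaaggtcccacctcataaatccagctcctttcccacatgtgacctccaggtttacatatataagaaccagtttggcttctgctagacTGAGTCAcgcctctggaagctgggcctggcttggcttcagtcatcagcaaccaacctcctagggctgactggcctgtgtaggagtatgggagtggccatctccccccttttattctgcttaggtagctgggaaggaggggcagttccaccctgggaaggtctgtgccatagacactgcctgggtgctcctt
Il1rn, downstream start: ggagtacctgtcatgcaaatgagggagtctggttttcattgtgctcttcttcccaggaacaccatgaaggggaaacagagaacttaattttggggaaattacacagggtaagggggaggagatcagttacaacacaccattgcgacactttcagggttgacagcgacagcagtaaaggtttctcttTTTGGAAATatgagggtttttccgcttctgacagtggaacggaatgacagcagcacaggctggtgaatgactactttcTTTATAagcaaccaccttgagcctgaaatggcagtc
No matches overlapped in these windows. Il1a and Il1b each held the TATA box letters TATAAA shortly before the start, at -32 to -27 in Il1a and -31 to -26 in Il1b, a motif found in 13.6% of all 32851 promoter windows. Il1b also held a C/EBP match (TTNNGNAAT) at -91 to -83, found in 11.5% of windows. Il1a held a PU.1 match (GAGGAA) at -41 to -36, found in 28.3% of windows. An AP-1 match (TGANTCA, in 7.81% of windows) stood at -12 to -6 of Il1a. The upstream Il1rn window held an AP-1 match at -141 to -135. The downstream one held a C/EBP match at -64 to -56 and a TATA match on the other strand at 15 to 20. The NF-κB letters GGANTTNCC (3.95% of windows) and the STAT letters TTCNNNGAA (8.3%) were in none of these 4 windows, which says nothing of whether the factors act there. The Il1r2 window, scanned but not shown, held a STAT match at -111 to -103.

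Il1a was bright in M1 cells and dim in all other groups. Its level was -3.80, -5.71 and -5.26 on the op/op arrays, none of them well above background, against -1.25, -0.59 and -3.07 in WT cells. It was 4.46, 4.21 and 4.0 in M1 cells, against -2.99, -2.78 and -3.29 in M2 cells. M1 cells thus stood far above all others. The op/op signals have only an upper bound, since the lowest signals called above background on those arrays were -3.25, -3.50 and -3.15, close to the M2 levels. In op/op cells Il1a fell at least 3.16-fold against WT, a bound that sets each op/op array at the lowest signal called above background where its own was dimmer (difference -3.29 ± 0.58 SE, limma adjusted p = 0.00151). After normexp background correction the difference was smaller, at -0.86, and still called, so the bound holds for the scanner software's background correction only. Without WT replicate 4 it was -4.0, and the difference of WT from M1 cells was -5.14. M1 exceeded M2 cells 152-fold (7.25 ± 0.58, limma adjusted p = 4.58e-06), with a difference of 6.11 after normexp. WT replicate 4, at -3.07, lay within the M2 range, and WT and M2 overlapped (1.38 ± 0.58, adjusted p = 0.0545 in limma). WT cells lay 58.2-fold below M1 cells, and op/op cells at least 184-fold below them (log2 differences after normexp of -5.28 for WT and -6.14 for op/op cells). Op/op cells were called at least 1.21-fold below M2 cells (limma adjusted p = 0.00927), but the log2 difference was -0.03 after normexp, and the call was lost under 3 of 19 alternatives. The probe lies at chr2:129125994-129126053 on the minus strand (mm9, as in the files).

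Il1b showed a different order, with renal cells close to M1. Its level was 4.20, 4.48 and 4.54 in op/op cells, against 5.79, 5.86 and 5.24 in WT cells, and 6.15, 6.06 and 5.96 in M1 cells, against -2.12, -2.21 and -1.66 in M2 cells. The order was M1, WT, op/op and then M2, and no neighbouring pair of groups overlapped. Il1b fell 2.33-fold in op/op against WT cells (-1.22 ± 0.21, limma adjusted p = 0.00139). Within slide 2 alone, without WT replicate 1, the difference was -1.14. M1 exceeded M2 cells 266-fold (8.06 ± 0.21, limma adjusted p = 2.36e-09). Against M2 cells, Il1b was 84.7-fold higher in op/op and 197-fold higher in WT cells. After normexp these 3 differences from M2 cells were 7.41 for M1, 5.61 for op/op and 6.91 for WT cells on the log2 scale. Against M1 cells it was 3.14-fold lower in op/op cells, and in WT cells the difference was -0.43 with a 95% interval of -0.89 to 0.03 (limma adjusted p = 0.0982). The Il1b probe, printed on 10 spots that were averaged, lies at chr2:129190347-129190406 on the minus strand (mm9).

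Il1rn, the antagonist, was high in M1 cells and near the M2 level in the kidney. Its level was -0.68, -0.79 and -1.08 in op/op cells, against 0.05, 1.79 and -0.16 in WT cells. It was 5.62, 5.64 and 5.90 in M1 cells, against -0.04, 0.06 and 0.45 in M2 cells. Only M1 stood clear of the other groups by several doublings, and WT replicate 2 was well above the other WT arrays. Il1rn fell 2.66-fold in op/op against WT cells (-1.41 ± 0.41, limma adjusted p = 0.0126), or by 0.79 on the log2 scale without WT replicate 2. M1 exceeded M2 cells 47.5-fold (5.57 ± 0.41, limma adjusted p = 2.09e-06). Op/op cells lay 95.1-fold and WT cells 35.8-fold below M1 cells, with a log2 difference of -5.78 for WT cells without WT replicate 2, against -5.16 with it. WT and M2 levels overlapped (0.41 ± 0.41, adjusted p = 0.395 in limma). Op/op cells lay below M2 cells (-1.0 ± 0.41, limma adjusted p = 0.0367), a call that was lost under 10 of 20 alternatives, leaving out any 1 of the op/op arrays among them.

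Ligand and antagonist therefore shifted unequally between kidney and M1 cells. The level of Il1b minus that of Il1rn on the same array, from which the array's scaling cancels, was 4.87, 5.28 and 5.62 in op/op and 5.74, 4.06 and 5.40 in WT cells. It was 0.53, 0.42 and 0.06 in M1 cells and -2.08, -2.27 and -2.10 in M2 cells. The value itself depends on the 2 probes and only its change between groups can be read. Op/op and WT arrays overlapped, all renal arrays lay above all M1 arrays, and all M1 arrays lay above all M2 arrays.

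**Figure D1:**
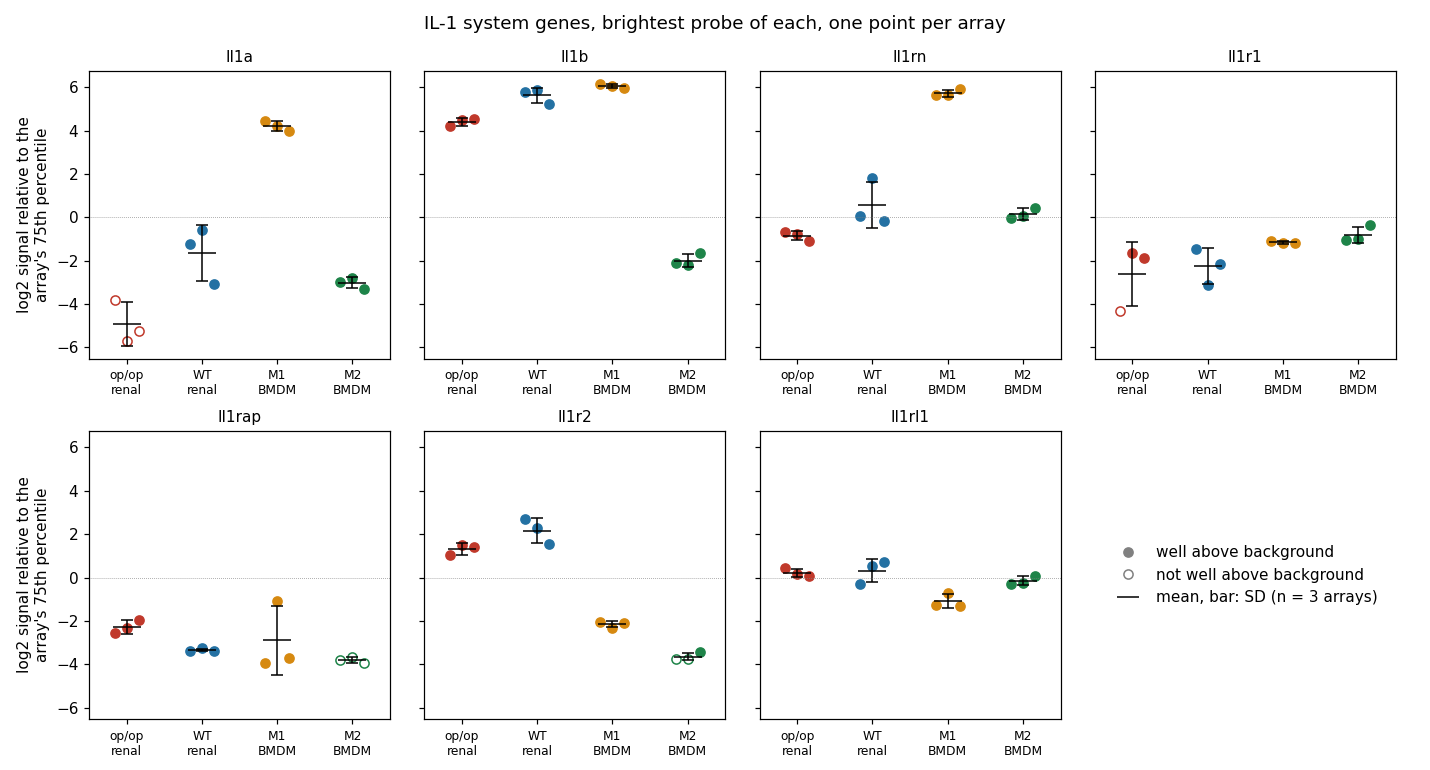
Level (vertical axis, log2 signal scaled to each array's 75th percentile) of the brightest probe of each IL-1 gene in op/op renal, WT renal, M1 and M2 cells, 1 point per array, open where not well above background, with the mean and SD of 3 arrays. Il1a and Il1rn stand out in M1 cells only, Il1b in op/op, WT and M1 cells, and Il1r2 in op/op and WT cells.

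Il1r1, the signalling receptor, had low to moderate signals everywhere. Its level was -4.33, -1.63 and -1.88 in op/op cells, the first not well above background, against -1.46, -3.14 and -2.16 in WT cells. It was -1.07, -1.21 and -1.17 in M1 cells, against -1.06, -1.02 and -0.38 in M2 cells. The renal arrays scattered over more than 2 doublings, and op/op and WT overlapped. Neither op/op against WT (-0.36 ± 0.61, limma adjusted p = 0.613, 95% interval -1.70 to 0.97) nor M1 against M2 (-0.33 ± 0.61, limma adjusted p = 0.801, interval -1.67 to 1.0) was called. These intervals are wide, so the p-values do not show that the levels were alike. Op/op cells lay below M1 (-1.46, limma adjusted p = 0.0426) and M2 cells (-1.80, limma adjusted p = 0.0163). Without op/op replicate 1, the dim array, these differences were -0.61 and -0.94 and neither was called. After normexp they were -0.56, not called, and -0.85, called. The call against M1 cells was lost under 10 of 19 alternatives and that against M2 cells under 4 of 19. The probe is at chr1:40372667-40372726 on the plus strand (mm9).

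Il1r2, the decoy receptor, separated kidney from marrow cells. Its level was 1.03, 1.52 and 1.43 in op/op cells, against 2.68, 2.29 and 1.53 in WT cells. It was -2.05, -2.32 and -2.09 in M1 cells, against -3.75, -3.75 and -3.45 in M2 cells, where only 1 of the 3 arrays was above background. All renal arrays lay more than 3 doublings above all marrow arrays. Against M1 cells the level was 11.2-fold higher in op/op (limma adjusted p = 4.91e-07) and 20.0-fold higher in WT cells (limma adjusted p = 3.01e-07). Against M2 cells it was 31.5-fold higher in op/op and 56.5-fold higher in WT cells. After normexp the log2 differences were smaller and still called, at 2.81 for op/op and 3.65 for WT against M1 cells, and 3.49 for op/op and 4.33 for WT against M2 cells. Other cell markers were also higher in the kidney: in each of these 4 comparisons 11 of 11 endothelial and 9 or 10 of 10 distal nephron and collecting duct markers rose. Over all genes, 33.8% to 47.1% were called higher and 25.6% to 36.4% lower in these comparisons. Robo4 and Tie1 were above background on no marrow array, and Esam and Tek on no M2 array. These endothelial markers entered those tests through renal cells alone. Umod, Scnn1b and Scnn1g were also above background on no marrow array. Mast cell and basophil markers rose in 5 of 7 against M1 in both renal groups, and against M2 cells in 5 of 5 for op/op and 6 of 6 for WT cells. Of the 11 on the array, Cpa3, Fcer1a, Mcpt8, Ms4a2 and Tpsab1 were above background on no renal array. Cma1 and Mcpt4 were above it on no M2 array, so where tested against M2 cells they entered through renal cells alone. Of 14 neutrophil markers 2 to 5 rose and 8 to 9 fell. The part of these cells was not tested. Between the renal groups Il1r2 fell 1.79-fold in op/op cells (-0.84 ± 0.26, limma adjusted p = 0.0179), but WT replicate 4 nearly met the highest op/op array. That call was lost within slide 2, which leaves out WT replicate 1 (-0.59, limma adjusted p = 0.0644). It was also lost when WT replicate 2 (-0.78) or op/op replicate 1 (-0.69) was left out. M1 exceeded M2 cells 2.82-fold (1.5 ± 0.26, limma adjusted p = 0.00186), with a difference of 0.68 after normexp. The probe is at chr1:40180014-40180073 on the plus strand (mm9).

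Il1rl1 was measured by 3 probes that gave different pictures, so their sequences are shown. All lie on the plus strand of chromosome 1 (mm9). The variant 2 probe, for the transcript that encodes soluble ST2, is at chr1:40504769-40504828. Those of variant 1, which encodes the membrane receptor, are an inner one at chr1:40520014-40520073 and an outer one nearer the 3′ end at chr1:40522187-40522246.
Il1rl1, variant 2 probe: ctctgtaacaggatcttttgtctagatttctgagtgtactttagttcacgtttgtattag
Il1rl1, variant 1 inner probe: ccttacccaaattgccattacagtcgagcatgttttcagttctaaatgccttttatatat
Il1rl1, variant 1 outer probe: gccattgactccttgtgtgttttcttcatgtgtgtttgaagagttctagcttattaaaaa
The outer probe was the brightest. Its level was 0.42, 0.16 and 0.08 in op/op cells, against -0.28, 0.51 and 0.71 in WT cells, and -1.25, -0.72 and -1.30 in M1 cells, against -0.28, -0.24 and 0.08 in M2 cells. It overlapped between op/op and WT (-0.09 ± 0.26, adjusted p = 0.768 in limma, 95% interval -0.66 to 0.48) and was lowest in M1. It fell 1.93-fold in M1 against M2 cells (-0.95 ± 0.26, limma adjusted p = 0.0254), a call lost under 7 of 21 alternatives, among them leaving out any 1 array of these groups other than M1 replicate 3.

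The variant 2 probe was well above background on every marrow array and on no renal array. Its level was -5.35, -5.63 and -5.19 in op/op cells, against -6.22, -5.32 and -6.74 in WT cells. It was -1.58, -1.45 and -1.62 in M1 cells, against -0.54, -0.73 and -0.31 in M2 cells. Relative to M1 cells it was at least 3.37-fold lower in op/op and at least 7.53-fold lower in WT cells. Relative to M2 cells the bounds were 6.84-fold for op/op and 15.3-fold for WT cells. With every probe fitted, the limma adjusted p of these 4 comparisons lay between 1.75e-07 and 6.65e-07. M1 lay below M2 cells (-1.02 ± 0.30, limma adjusted p = 0.0343 with every probe fitted), as on the outer probe. The inner variant 1 probe was near background throughout, above it on no op/op array, 2 WT arrays, 2 M1 arrays and no M2 array. The bright outer probe alone put op/op and WT cells above M1 cells (1.31 and 1.41, limma adjusted p = 0.000585 and 0.000733), whereas the mean of the probes put them below (-1.26 and -1.57). The renal level of Il1rl1 relative to marrow cells therefore depends on the probe.

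Il1rap also had 3 probes on chromosome 16, plus strand, that disagreed. The brightest, for an Ensembl transcript at chr16:26725291-26725350 (mm9), was at -2.57, -2.32 and -1.94 in op/op cells, against -3.37, -3.27 and -3.40 in WT cells. These groups did not overlap, but the gene was not called (1.07 ± 0.57, limma adjusted p = 0.122). With only these 2 groups fitted, it was (limma adjusted p = 0.0252). On that probe M1 cells were at -3.93, -1.06 and -3.69, and no M2 array was above background (-3.82, -3.68 and -3.96). M1 replicate 3 stood more than 2 doublings above the other M1 arrays and widened the pooled spread. Without it, op/op exceeded M1 cells by 1.53 (limma adjusted p = 8.68e-05), against 0.62 with it (limma adjusted p = 0.327). Op/op exceeded M2 cells at least 2.87-fold (limma adjusted p = 0.0246), a call lost under 8 of 19 alternatives and reversed in sign under 1 other. The log2 difference was 1.03 after normexp, 0.88 with quantile and 0.73 with cyclic loess normalization, against 1.54 as fitted. The bound therefore holds only for the background correction and scaling used. The probe of variant 1, at chr16:26716515-26716574, was above background on every marrow array and on 1 of 6 renal arrays, whereas the brightest probe was above it on every renal array and on no M2 array. Its level was -4.57, -5.71 and -4.56 in op/op cells and -4.66, -4.43 and -6.15 in WT cells. It was -4.15, -3.31 and -4.11 in M1 cells and -3.20, -3.14 and -3.47 in M2 cells. The variant 2 probe at chr16:26701498-26701557 was above background on no op/op or M2 array, 1 WT array and 2 M1 arrays.

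**Figure D2:**
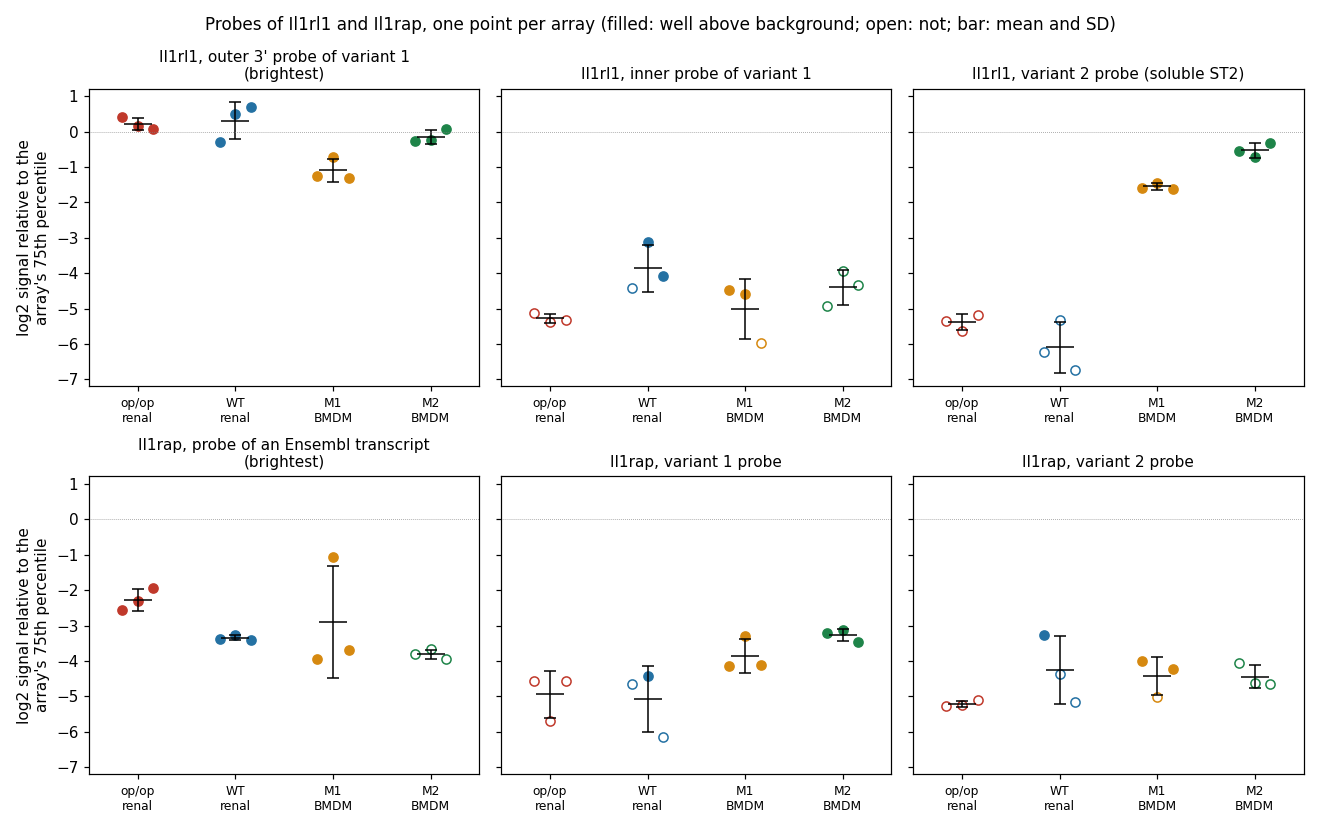
Level (vertical axis, log2 signal scaled to each array's 75th percentile) of each of the 3 probes of Il1rl1 (upper row) and Il1rap (lower row) in op/op renal, WT renal, M1 and M2 cells, 1 point per array, open where not well above background, with mean and SD. The variant 2 probe of Il1rl1 is open on all 6 renal arrays and filled on all marrow arrays, whereas the outer variant 1 probe is filled on all 12.

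Counted over the members, 4 of 7 fell and 0 rose in op/op against WT cells: Il1a, Il1b, Il1rn and Il1r2. In that comparison 59.4% of the 27047 genes tested were called, 30.9% as higher and 28.5% as lower, and the median difference of all genes was 0.16, so a call by itself is common here. The members' median difference was -0.84. A gene was tested where every array of either group was above background, so Il1a, above it on no op/op array, entered through WT cells alone. Within slide 2 the differences were -3.09 for Il1a and -1.67 for Il1rn, both still called. Of 13 macrophage markers 11 fell and 0 rose, and of 14 proximal tubule markers 13 fell. Among neutrophil markers 4 of 13 tested rose and 1 fell. The part of these cell types in the members' differences was not tested. In M1 against M2 cells 4 of 7 members rose (Il1a, Il1b, Il1rn and Il1r2) and 1 fell (Il1rl1), where 17.8% of 26166 genes were called, 8.86% as higher and 8.92% as lower. With only the 2 groups of a comparison fitted, the calls numbered 9407 of 27047 for op/op against WT and 9362 of 26166 for M1 against M2 cells. With all 4 groups fitted, the members' median difference in M1 against M2 cells was 1.5, against a median of 0 for all genes. Il1r2, above background on 1 M2 array, entered that comparison through M1 cells alone. The same 4 genes were thus higher in M1 cells and lower in op/op cells, each against its own comparator.

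**Figure D3:**
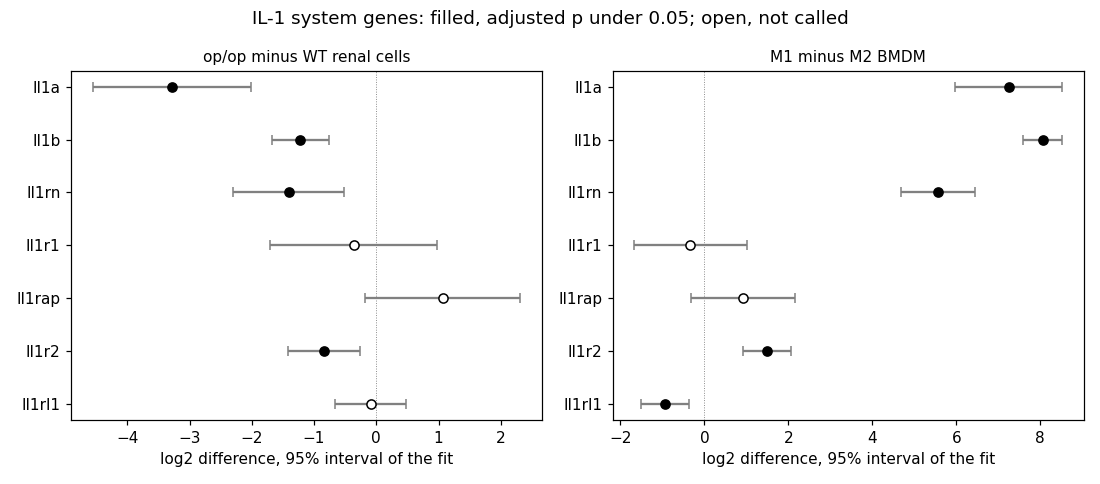
Log2 difference of each member with the 95% interval of the fit (horizontal axis), op/op minus WT renal cells on the left and M1 minus M2 cells on the right, on separate scales, filled where the adjusted p was under 0.05. Il1a, Il1b, Il1rn and Il1r2 lie below 0 on the left and above 0 on the right.

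Between kidney and polarised cells the members were called about as often as all genes, and less often in WT against M2 cells. Of the 7 members, 2 rose and 4 fell in op/op against M1 cells, where 81.7% of genes were called (46.2% higher, 35.5% lower). In op/op against M2 cells 3 rose and 3 fell, where 83.5% were called (47.1% higher, 36.4% lower). In WT cells 2 rose and 2 fell against M1 cells, where 59.4% of genes were called (33.8% higher, 25.6% lower). Against M2 cells 2 rose and 0 fell, where 64.6% were called (36.6% higher, 28.0% lower). Il1b and Il1r2 were the members called higher in both kidney groups than in M2 cells. Il1a and Il1rn were called lower in both kidney groups than in M1 cells. Il1a and Il1r1 were not above background on every op/op array and entered the op/op tests here through marrow cells alone. Il1r2 and Il1rap were not above it on every M2 array and entered the tests against M2 cells through renal cells alone. These comparisons share samples with each other and with those above.

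**Figure D4:**
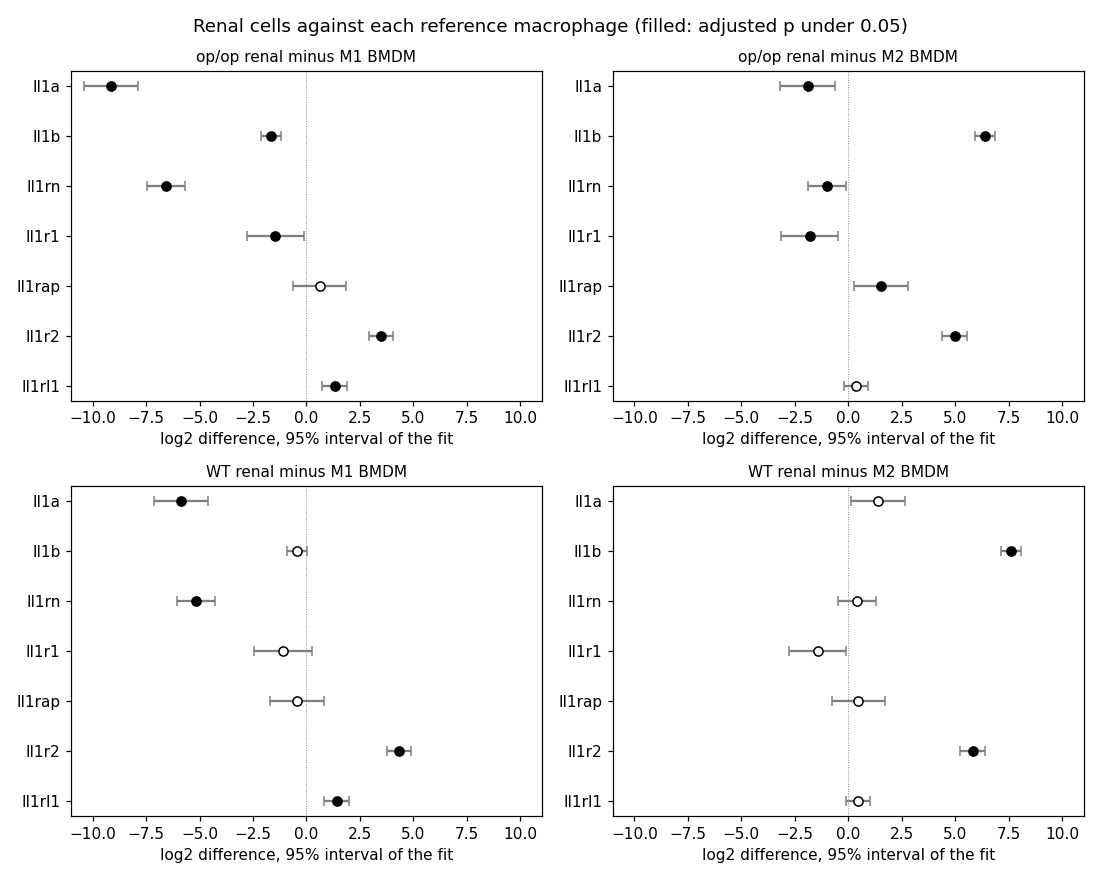
Log2 difference with the 95% interval of the fit (horizontal axis) of each member's brightest probe, for op/op renal cells (upper row) and WT renal cells (lower row) minus M1 (left) and minus M2 cells (right), filled where the adjusted p was under 0.05. Il1r2 lies above 0 in all 4 panels, Il1a and Il1rn far below 0 against M1, and Il1b far above 0 against M2.

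Other genes of the pathway were counted by list. Among genes that IL-1 is known to induce, 14 of 18 tested fell and 2 rose in op/op against WT cells, with a median difference of -1.48. Over all genes 28.5% were called lower and 30.9% higher there, and 11 of 13 macrophage markers fell alongside, whose part was not tested. Of those that fell, Il6, Steap4 and Icam1 were not above background on every op/op array and entered the test through WT cells alone. Il6, a cytokine of the acute phase, fell at least 3.92-fold and was above background on no op/op array (limma adjusted p = 0.000238). Ptgs2, which encodes the prostaglandin synthase COX-2, fell 4.28-fold (-2.10 ± 0.26, limma adjusted p = 0.000448). Zc3h12a, which encodes an RNase that degrades cytokine transcripts, fell 3.05-fold (-1.61 ± 0.19, limma adjusted p = 0.000413). The 2 that rose were Cxcl5, a neutrophil chemokine, and Ptges, a prostaglandin E synthase. In M1 against M2 cells 17 of 20 tested rose and 0 fell, with a median of 2.22, where 8.86% of all genes were called higher. Csf2, Csf3 and Mmp3 among these were above background on no M2 array and entered the test through M1 cells alone. Cxcl2, another neutrophil chemokine, rose 128-fold, Ptgs2 29.1-fold and Il6 38.4-fold. Whether IL-1 itself induced the genes of this list in either comparison was not tested, and M1 cells had received LPS.

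Of the genes that cleave and release IL-1, 9 of 13 fell and 1 rose in op/op against WT cells, with a median of -0.80, where 28.5% of all genes were called lower and 30.9% higher. Casp1, the enzyme that cleaves the IL-1β precursor, fell 2.33-fold (-1.22 ± 0.22, limma adjusted p = 0.0017). The inflammasome sensors Aim2 and Nlrc4 fell 2.30-fold and 3.60-fold. Nlrc4 was above background on 2 op/op arrays and entered the test through WT cells alone. The member that rose, S100a13, is known from the export of IL-1α and of fibroblast growth factor. In M1 against M2 cells 7 of 13 rose and 1 fell, where 8.86% of all genes were called higher and 8.92% lower. The sensor Nlrp3 rose 7.47-fold, Casp4, the mouse caspase that senses cytosolic LPS, 5.90-fold and Casp1 2.81-fold, while the inflammasome adaptor Pycard fell by 0.65 on the log2 scale.

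Of 19 genes of the pathway from the receptor to NF-κB, 11 fell and 0 rose in op/op against WT cells, with a median of -0.68. The number called, 11 of 19, is close to the 59.4% called in either direction over all genes, of which 28.5% were lower. Ikbkg, above background on 1 op/op array, entered the test through WT cells alone. Nfkb1, an NF-κB subunit, fell 2.49-fold, the adaptor Myd88 1.90-fold and Tab3, a partner of the kinase TAK1, 1.77-fold. In M1 against M2 cells 7 of 19 rose and 0 fell, where 8.86% of all genes were called higher. Irak3, an IRAK family member that restrains the pathway, rose 20.9-fold, Peli1, an E3 ligase, 3.71-fold and Myd88 2.64-fold.

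Of the other ligands of the family with the IL-18 binding protein, 5 of 8 on the array were tested in each comparison, with Il1f8 among them in op/op against WT and Il1f6 in its place in M1 against M2. In op/op against WT cells 1 of 5 fell and 0 rose, where 28.5% of all genes were called lower: Il18 fell at least 1.29-fold and was above background on no op/op array (limma adjusted p = 0.002). Il18 thus entered that test through WT cells alone. In M1 against M2 cells 4 of 5 rose, where 8.86% of all genes were called higher, among them Il18 13.4-fold, Il18bp, which encodes an IL-18 trap, 7.20-fold and Il1f9, now called IL-36γ, 5.99-fold. Il1f6, the other that rose, was above background on no M2 array and entered the test through M1 cells alone. Of the other receptors, 3 of 6 were tested. Il18r1, the IL-18 receptor, rose 2.46-fold in op/op against WT cells (1.30 ± 0.24, limma adjusted p = 0.00177), where 30.9% of all genes were called higher. In that comparison 4 of 6 tested T cell markers, 5 of 8 B cell markers and 3 of 6 NK cell markers also rose, and their part was not tested. In M1 against M2 cells Il18r1 was not tested, and the 3 receptors that were, Il1rl2 (0.38), Il18rap (0.60) and Sigirr (0.49), were not called.

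**Figure D5:**
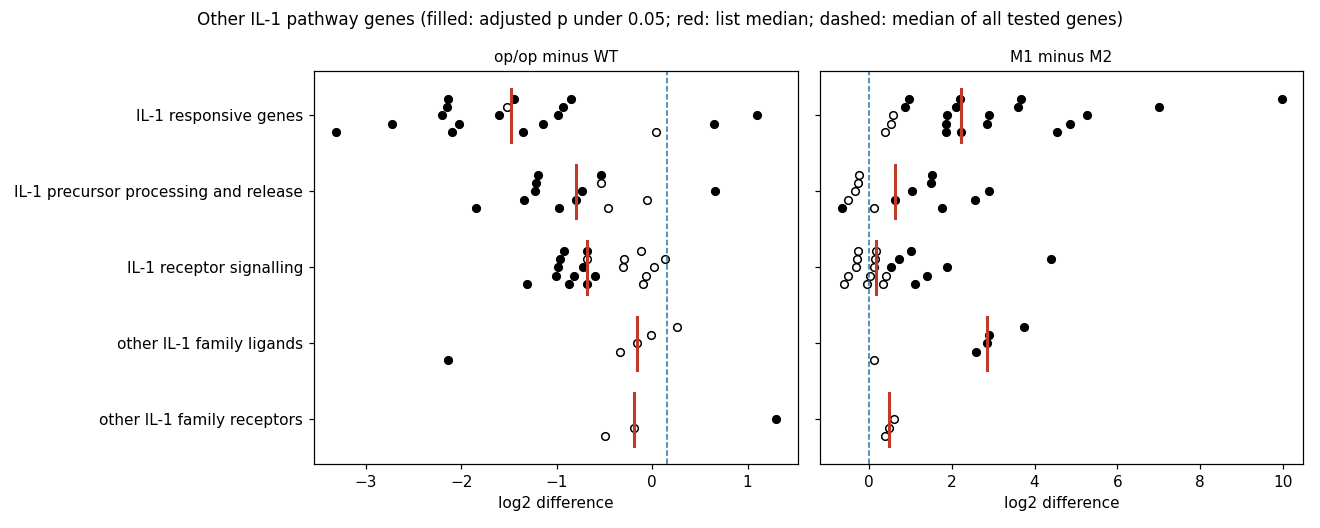
Log2 difference (horizontal axis) of each tested gene of 5 IL-1 pathway lists, op/op minus WT renal cells on the left and M1 minus M2 cells on the right, on separate scales, filled where the adjusted p was under 0.05, with the list median in red and the median of all tested genes dashed. The medians of the responsive, processing and signalling lists lie below the dashed line on the left and above it on the right.

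By Pearson correlation over the 12 arrays among 16536 named genes, those most like each member were found. The arrays fall into 4 groups, so these values mostly describe group differences, less so for Il1rap and Il1r1, which varied within groups. The brightest Il1rap probe was at -1.06 on M1 replicate 3, against -3.93 and -3.69 on the other M1 arrays. Il1r1 was at -4.33 on op/op replicate 1, against -1.63 and -1.88 on the other op/op arrays. Most like Il1b were Socs3, a feedback inhibitor of cytokine signalling (r = 0.995), Hdc, the histamine-forming enzyme (0.991), and Ccl4, a chemokine (0.984). For Il1a they were Alpk1, Zup1 and Pstpip2 (0.986 to 0.991). For Il1rn they were Ifih1, Xaf1 and Casp4 (0.992 to 0.993). For Il1r2 they were St3gal6, Fmo1 and Mfng (0.991 to 0.996). Likeness was weaker for Il1r1 (Chrdl1, Ift43 and Fars2, 0.949 to 0.962), Il1rl1 (Exoc8, Rpa3 and Slc19a1, 0.921 to 0.946) and Il1rap (Pcdhb4, Mast1 and Atp12a, 0.827 to 0.924).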

How the data were processed

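RNA was amplified with a whole-transcriptome kit, labelled with Cy3 and hybridised to one-colour arrays, per the labels' protocols. Agilent Feature Extraction 10.7.3.1 turned scans into background-subtracted spot intensity values, per the file headers. In the authors' deposited table the values are log2, again scaled by the 75th percentile, and served as an alternative. Spots of a probe were averaged, log2 processed signals were scaled to each array's 75th percentile, and the brightest probe stood for a gene. Of 55681 probes, 30 with a spot marked as an outlier were left out. A gene was tested where all arrays of either compared group were called well above background, with limma 3.58.1 in R 4.3.3 (statmod 1.5.0 for random blocks), and p-values were adjusted by Benjamini and Hochberg over all of them. A gene dim in the other group therefore entered only through the group where it was high, and such genes lean the counts that way. Probe coordinates are mm9, per the file headers. Promoters are from RefSeq (GRCm38.p6), where all 7 members matched, and the motif letters were settled after a first scan of these windows. Where no array of a group was above background, folds are lower bounds, computed with the array's lowest signal called above background as the floor. These bounds hold only for the background correction and scaling used.

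All 7 members were named with every probe, with the 3 called genes of smallest p in each pathway list in op/op against WT and in M1 against M2, and the 3 genes most like each member. Cxcl5, Ptges, S100a13 and Pycard were named after their values were seen. The members, lists and alternatives were chosen with earlier results of these data known. The procedure was tested on simulated data. The number of arrays limits the precision. Figures were drawn with Python 3.11.15, pandas 2.3.3 and matplotlib 3.10.9.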

Additional observations from a re-analysis of the deposited data

How the results depend on the processing

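The calls of Il1a, Il1b and Il1rn in op/op against WT cells and in M1 against M2 cells kept their direction and stayed under the threshold in every alternative that tested them, as did those of Il1b and Il1r2 against M2 cells and of Il1a, Il1rn and Il1r2 against M1 cells in both renal groups. Keeping only probes well above background on all 12 arrays left 3 members (Il1b, Il1rn and Il1rl1), so fewer could be called: 2 of 3 in op/op against WT, 3 in M1 against M2, 3 in op/op against M1, 2 in op/op against M2, 2 in WT against M1 and 1 in WT against M2. Of 7 members, the 2 called in WT against M2 became 4 with normexp background correction, with low signals raised to a floor, with only the 2 groups fitted, with trend and robust settings, and without WT replicate 1. The 6 called in op/op against M2 became 3 with the floor, 2 with slide as a random block and 3 without M2 replicate 4. Leaving out 1 array at a time gave 3 to 4 calls in op/op against WT, 4 to 5 in M1 against M2, 5 to 6 in op/op against M1, 3 to 5 in op/op against M2, 4 in WT against M1 and 2 to 4 in WT against M2. Over all genes, fitting only the 2 groups gave 9407 calls in op/op against WT, in place of 16077, and 9362 in M1 against M2, in place of 4651. The causes of these changes were not tested, other than the fewer genes or arrays that an alternative leaves.

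The sign of uncalled or probe-dependent differences turned in the following cases. The mean of a gene's probes turned Il1rl1 to 0.31 in op/op against WT, -1.26 in op/op against M1, -2.25 in op/op against M2, -1.57 in WT against M1 and -2.55 in WT against M2, and Il1rap to -0.23 in op/op against M1, -0.067 in op/op against M2 and -0.67 in WT against M2. Quantile normalization turned Il1rap to -0.15 in WT against M2, and cyclic loess to -0.17 there and -0.069 in op/op against M1. Slide as a term turned Il1r1 in op/op against WT to 0.033. Leaving out 1 array at a time took 4 uncalled differences across 0. Il1r1 lay between -0.85 and 0.49 and Il1rl1 between -0.39 and 0.11 in op/op against WT, Il1rap between -0.97 and 0.47 in WT against M1, and Il1rn between -0.21 and 0.77 in WT against M2.

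Same-numbered arrays did not deviate together (correlations of -0.16 to 0.07 for op/op with WT and -0.07 to 0.14 for M1 with M2). With 3 arrays per group, these correlations cannot settle whether the numbers pair the samples. With replicate number as a block, 4 members were called in op/op against WT, 4 in M1 against M2 (Il1rl1 was not), 5 in op/op against M1, 4 in op/op against M2, 4 in WT against M1 and 2 in WT against M2, and Il1rap turned to 0.12 in WT against M1. Probes not above background limit what can be said of Il1a and Il1r1 in op/op cells, of soluble ST2 in op/op and WT cells and of Il1r2 in M2 cells. For Il1rap this limit holds for the brightest probe in M2 cells, the variant 1 probe in renal cells and the variant 2 probe in all groups.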
